A study of Mus musculus with 18 samples.

Results

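Gene expression in the pancreatic islets of 12-week-old female NOD mice was compared with that in islets of age-matched female NOD.B10 mice. NOD is an inbred strain that develops autoimmune diabetes spontaneously, and NOD.B10 is a congenic strain on the NOD background that carries another major histocompatibility complex (MHC) and stays free of diabetes. The comparison rests on the 6 arrays whose titles name islets of 12-week-old NOD mice, of 18 arrays in all. The others, 6 arrays at 4 weeks and 6 at 10 days, are used here only to set the ratio at 12 weeks beside earlier ones. On each array the RNA of an individual NOD mouse (red, Cy5) met that of a pool made from 6 NOD.B10 mice of 12 weeks (green, Cy3). Islets were isolated by collagenase digestion, per the labels, and no islet was selected or sorted for immune infiltration as far as the labels say. Of the probes on the array 23093 were well above background in either channel on at least 3 of the 6 arrays, and they stood for 16497 genes. All ratios are log2 values of NOD over the NOD.B10 pool, so that a positive value is a higher level in the NOD mouse, and 1 unit is a 2-fold difference. The spread given (± SD) is that between the 6 NOD mice, while the pool counts as 1 control sample whose own spread is left out.

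In NOD mice, T cells, B cells, macrophages and dendritic cells gather around the islets and then enter them, a process called insulitis that precedes the loss of insulin-producing beta cells. Infiltrates that persist can take on the layout of lymphoid tissue, in which stromal cells make chemokines that draw in lymphocytes and specialised venules let them leave the blood. Interferon gamma from T cells raises the antigen presentation machinery and a set of guanosine triphosphatases (GTPases) in nearby cells, and beta cells under secretory load are known for their unfolded protein response.

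The results below turn on several families for which sequence 5′ of the gene is informative. Windows of 250 bases before the transcription start were read from RefSeq (reference mouse genome, build GRCm38.p6, not NOD or NOD.B10 sequence) for 11086 of the genes tested. On both strands they were searched for 4 motifs. These were the interferon-stimulated response element (GAAA, any 2 bases, GAAA), the gamma-activated site (TTCNNNGAA), the endoplasmic reticulum stress element (CCAAT, any 9 bases, CCACG) and an E2F site (TTTNGCGC). Matches are in capitals, and a capital run may hold matches of both strands that overlap. Gbp2 and Igtp, GTPases induced by interferon, were higher in NOD islets, with means of 1.62 and 1.94, while Rsad2 and Ifit3, antiviral genes also induced by interferon, were lower, with means of −2.05 and −1.97. All 4 windows hold the interferon-stimulated response element, at chr3:142620413-142620662 (plus strand), chr11:58199306-58199555 (plus strand), chr12:26456453-26456702 (minus strand) and chr19:34583279-34583528 (plus strand), and that of Igtp also holds a gamma-activated site.
Gbp2: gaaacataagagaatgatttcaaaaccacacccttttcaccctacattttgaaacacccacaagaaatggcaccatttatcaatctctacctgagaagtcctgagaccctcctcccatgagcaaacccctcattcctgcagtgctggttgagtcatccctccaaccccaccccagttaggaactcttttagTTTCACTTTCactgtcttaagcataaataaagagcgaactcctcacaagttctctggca
Igtp: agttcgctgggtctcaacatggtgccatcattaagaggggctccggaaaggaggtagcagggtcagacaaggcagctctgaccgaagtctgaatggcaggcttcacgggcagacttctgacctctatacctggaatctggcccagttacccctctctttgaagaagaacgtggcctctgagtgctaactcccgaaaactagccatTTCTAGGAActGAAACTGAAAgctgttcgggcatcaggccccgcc
Rsad2: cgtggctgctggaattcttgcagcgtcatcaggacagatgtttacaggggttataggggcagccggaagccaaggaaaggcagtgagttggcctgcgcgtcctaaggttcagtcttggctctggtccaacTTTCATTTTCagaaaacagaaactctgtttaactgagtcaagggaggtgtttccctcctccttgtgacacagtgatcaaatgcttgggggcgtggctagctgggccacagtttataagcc
Ifit3: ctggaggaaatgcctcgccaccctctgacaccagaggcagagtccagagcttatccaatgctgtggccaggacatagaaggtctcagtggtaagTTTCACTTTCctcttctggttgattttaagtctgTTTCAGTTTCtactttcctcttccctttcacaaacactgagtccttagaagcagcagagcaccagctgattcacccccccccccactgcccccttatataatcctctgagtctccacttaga

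The endoplasmic reticulum stress element is shown for Hsp90b1 and Creld2, a chaperone and a secreted stress protein of the endoplasmic reticulum whose means were −1.33 and −1.17, at chr10:86705445-86705694 (minus strand) and chr15:88819396-88819645 (plus strand). The E2F letters are shown for Mcm6, a subunit of the replicative helicase with a mean of 1.42, at chr1:128359706-128359955 (minus strand). Ifit3, Hsp90b1 and Creld2 were chosen for display after their values were seen. A match is a description of these letters, not a binding site or a cause of a ratio.
Hsp90b1: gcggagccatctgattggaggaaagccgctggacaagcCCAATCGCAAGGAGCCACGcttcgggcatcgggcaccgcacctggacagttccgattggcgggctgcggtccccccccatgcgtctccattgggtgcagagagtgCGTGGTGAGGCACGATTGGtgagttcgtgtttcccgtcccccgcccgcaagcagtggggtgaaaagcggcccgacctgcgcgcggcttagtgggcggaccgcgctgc
Creld2: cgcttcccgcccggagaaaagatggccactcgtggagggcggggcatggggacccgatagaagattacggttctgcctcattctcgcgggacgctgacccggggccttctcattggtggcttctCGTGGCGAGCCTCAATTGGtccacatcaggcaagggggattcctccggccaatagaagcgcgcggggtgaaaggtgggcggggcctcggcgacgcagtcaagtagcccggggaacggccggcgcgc
Mcm6: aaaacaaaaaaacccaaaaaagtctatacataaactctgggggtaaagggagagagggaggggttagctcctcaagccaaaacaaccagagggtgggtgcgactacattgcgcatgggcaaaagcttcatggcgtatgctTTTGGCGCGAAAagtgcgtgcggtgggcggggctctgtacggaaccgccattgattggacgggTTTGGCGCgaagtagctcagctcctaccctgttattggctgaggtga

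A gene was called where its mean over the 6 arrays differed from 0 with an adjusted p under 0.05 (limma, Benjamini-Hochberg over all 16497 genes). In total 8295 genes were called (50.3%), of which 4661 were higher (28.3% of the genes tested) and 3634 lower (22%), and 7328 of the called genes had the same sign in 6 of 6 mice. Among called genes with at least a 2-fold difference 379 were higher (2.3%) and 260 lower (1.58%). When each array was centred on its median with no intensity-dependent correction (median centring), 6214 genes were called higher (37.7%) and 6084 lower (36.9%), and 976 were 2-fold higher and 158 lower. With the scanner's processed signals 2052 genes were 2-fold higher and 1070 lower. The median ratio over all genes was 0.03. In the red channel 53.1% to 62.8% of probes exceeded background clearly, in the green 40.2% to 44.4%, and correlations between arrays lay between 0.671 and 0.873. Precision is limited by the number of arrays. No dye swap was made, so a gene-specific dye bias would remain in every ratio. Because single genes were called so often, counts of called members in a gene list are read against these shares, and no list was tested as a list.

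Of 46 lists of families and pathways, those of Gimap and Ms4a genes, the leukocyte cytoskeleton, leukocyte phosphatases, B and T cell receptor signalling, MHC class II and cell division held the largest shares of higher members. Those of the Reg family, duct cells, beta cells and endoplasmic reticulum stress held the largest shares of lower members. Under median centring the lists of beta cells and of endoplasmic reticulum stress were not among the 6 lists with the largest shares of lower members (42.9% and 32.1%). At that setting the Gimap and mitosis lists held 57.1% and 57.6% higher members. Those shares were below the ones of the interferon gamma response (76.7%) and of leukocyte integrins and adhesion (76%).

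**Figure D1:**
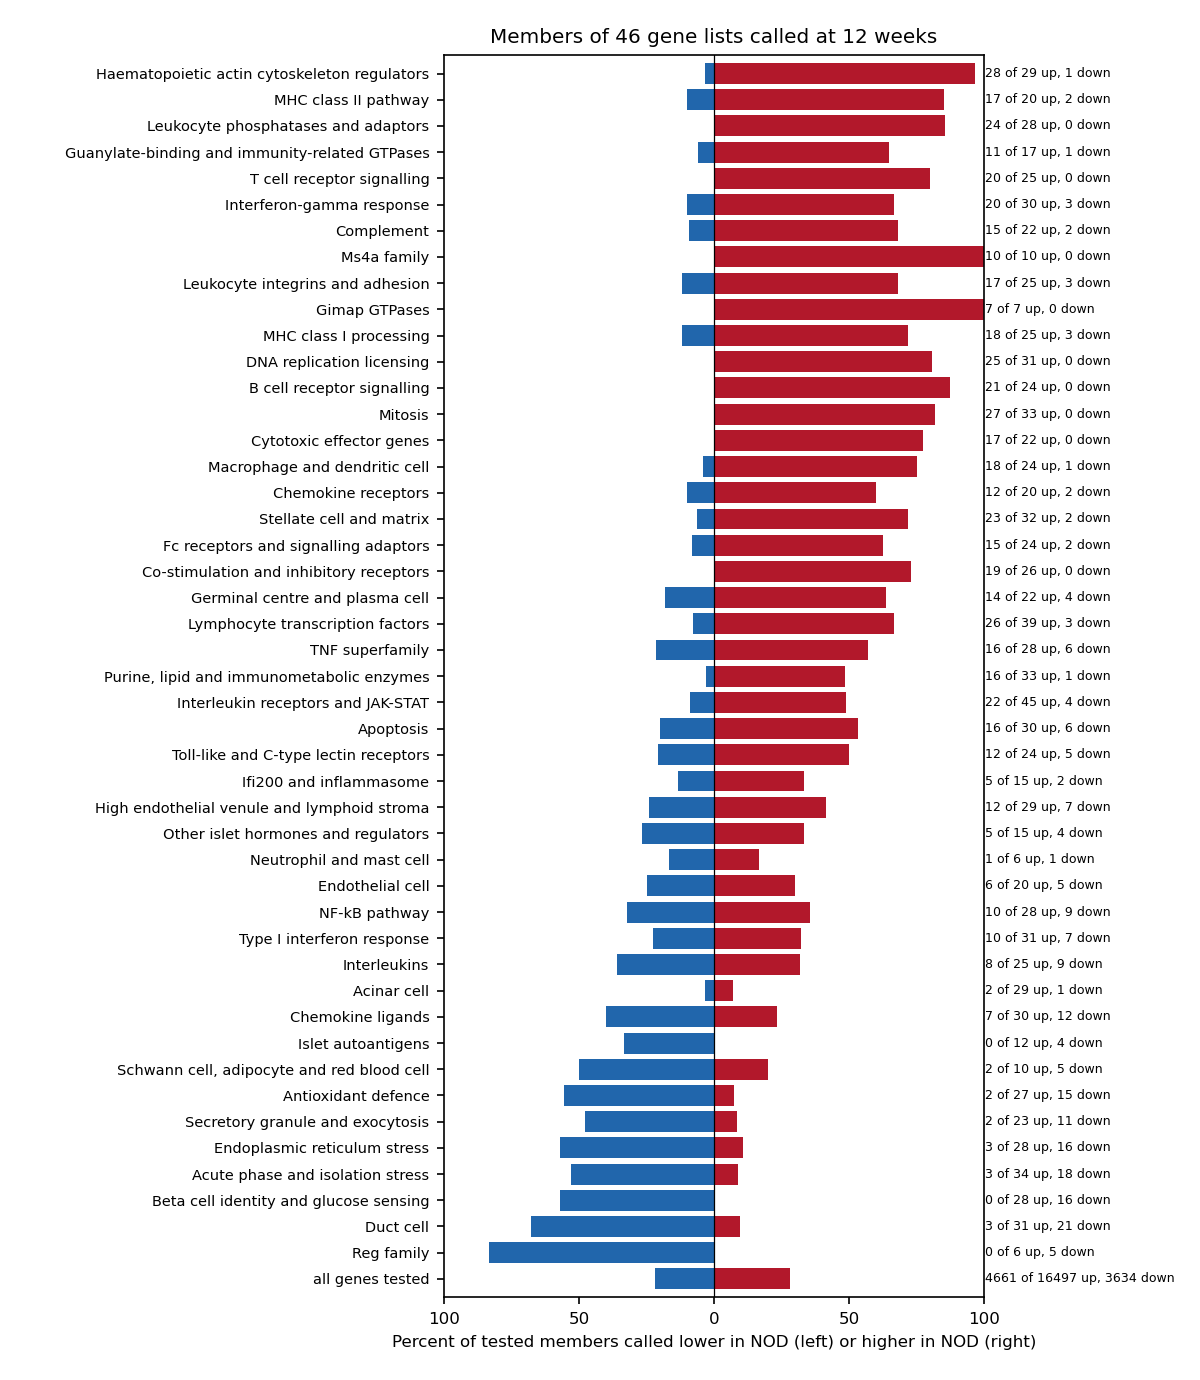
Percent of the tested members of each of 46 gene lists that were called lower (bars to the left) or higher (bars to the right) in the islets of 12-week-old NOD mice than in the NOD.B10 pool, over 6 arrays, with the counts at the right and all genes tested in the bottom row. Lists are ordered by their median ratio, and 28 of 29 actin cytoskeleton regulators were higher while 5 of 6 Reg family genes were lower, against 28.3% higher and 22% lower of all genes.

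The chemokine Ccl19, which draws in dendritic cells and naive lymphocytes that carry the receptor Ccr7, had the highest mean ratio of all genes tested. Its ratio ranged from 3.73 to 4.51 with a median of 3.85 over the 6 mice (mean 3.95 ± 0.30, 15.5-fold higher, adjusted p = 8.7e-07). All 6 mice lay far above 0. Its probe lies at chromosome 4, 42250432 to 42250491 in mm9, the build of the array's annotation. In RNA of whole islets, more cells of a type and more RNA per cell cannot be told apart, here and for each gene that follows. Cxcl9, which attracts activated T cells through Cxcr3 and is induced by interferon gamma, ranged from 1.94 to 3.16 with a median of 2.52 (mean 2.54 ± 0.41, 5.81-fold higher, adjusted p = 1.2e-05). Its receptor Cxcr3 ranged from 1.93 to 3.02 with a median of 2.43 (2.42 ± 0.45, adjusted p = 2e-05), with the pool well above background on 3 of 6 arrays. For both genes each NOD mouse lay above the pool. The monocyte chemokines Ccl2 and Ccl7 went the other way, as did Cxcl1, which attracts neutrophils. Ccl2 ranged from −3.08 to −1.62 with a median of −2.15 (mean −2.25 ± 0.52, 4.76-fold lower, adjusted p = 4.1e-05). Ccl7 averaged −2.07 ± 0.46 (adjusted p = 3.6e-05). Cxcl1 averaged −1.64 ± 0.75 (adjusted p = 0.00088), and for these genes all 6 mice lay below 0.

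Of the chemokine ligands, 7 of 30 tested members were called higher and 12 lower, with a median log2 ratio of −0.088, and of the receptors, 12 of 20 tested members were called higher and 2 lower, with a median log2 ratio of 0.36, against 28.3% and 22% of all genes with a median of 0.03. Cxcl9 and Cxcl10 bind the same receptor and are both induced by interferon gamma, yet Cxcl10 ranged from −2.48 to −0.53 with a median of −1.37 (−1.35 ± 0.73, adjusted p = 0.002). The 6 mice were all below 0 for Cxcl10 and all above 0 for Cxcl9. Unlike Ccl19, Cxcl13 and Ccl21a did not pass the test. Cxcl13, which attracts B cells to follicles, averaged 0.081 ± 0.45 (adjusted p = 0.68). Ccl21a, the other ligand of Ccr7, averaged 0.092 ± 0.87 (adjusted p = 0.8) with 1.74 in mouse 4 and between −0.70 and 0.13 in the others. Ccr7 averaged 1.46 ± 0.49 (adjusted p = 0.00021). Ccr6, a receptor of B cells and T helper cells, averaged 1.24 ± 0.46 (adjusted p = 0.00035). Of the atypical receptors that take up chemokines without signalling, Ackr3 averaged −0.59 ± 0.12 (adjusted p = 8e-05). Ackr1 averaged −0.26 ± 0.22 (adjusted p = 0.027), turning to 0.0079 under median centring.

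**Figure D2:**
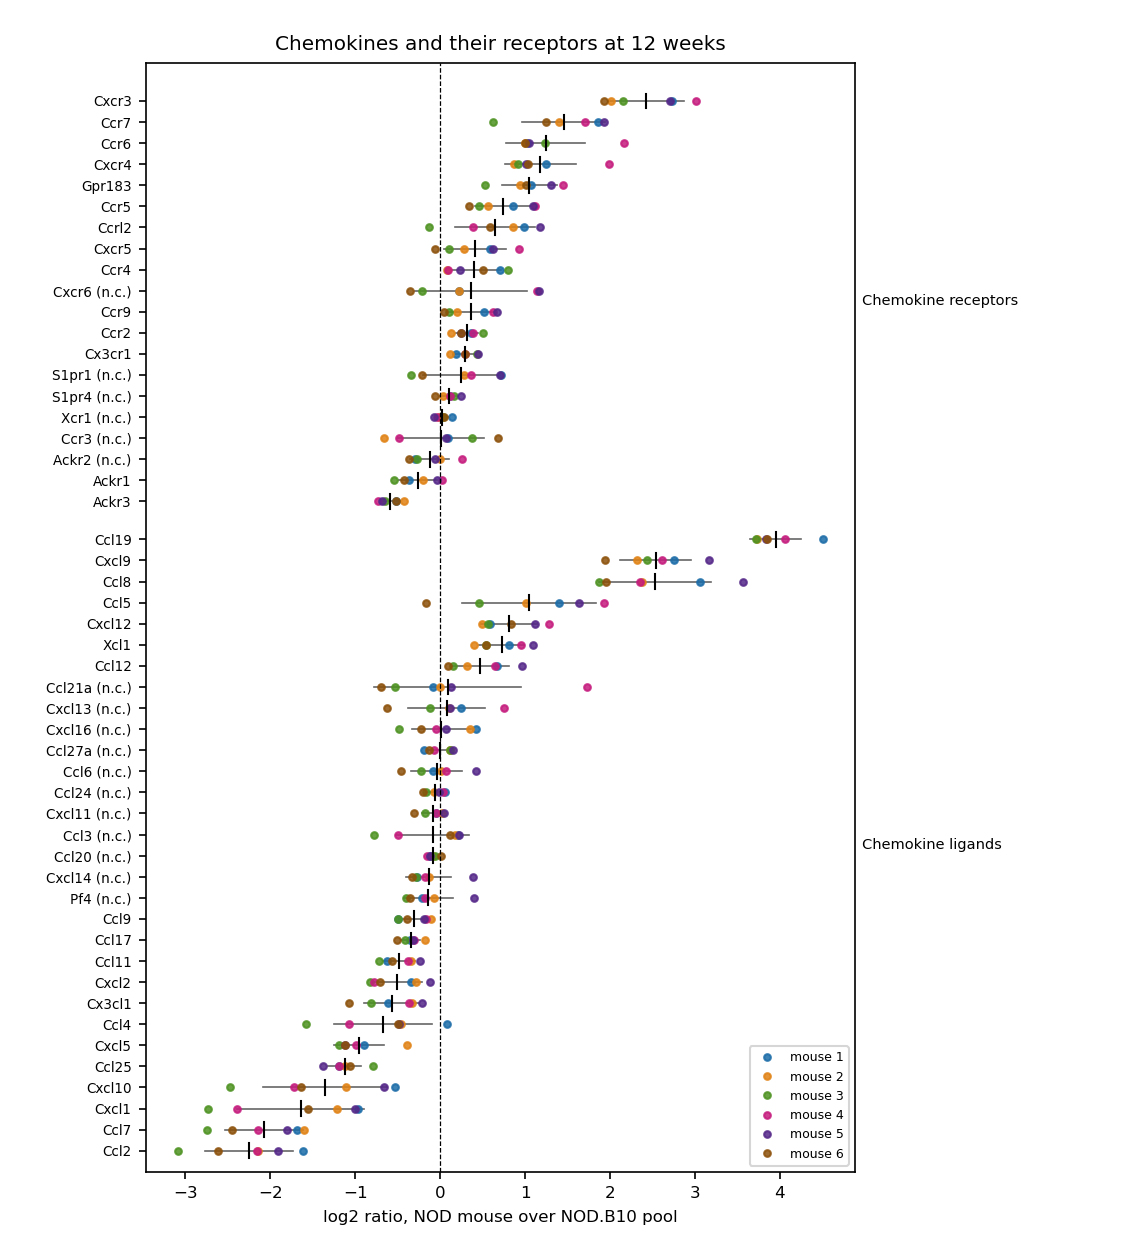
Log2 ratio of each 12-week-old NOD mouse (coloured points) over the NOD.B10 pool for 20 chemokine receptors and 30 ligands, with the mean (black mark) and 1 SD (grey line) over 6 mice, where n.c. marks genes that were not called. Ccl19, Cxcl9 and Cxcr3 lie above 0 in 6 of 6 mice, Ccl2, Ccl7, Cxcl1 and Cxcl10 lie below 0 in 6 of 6, and mouse 4 stands apart for Ccl21a.

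Among genes of high endothelial venules, the vessels through which lymphocytes enter lymph nodes, and of lymphoid stroma, 12 of 29 tested members were called higher and 7 lower, with a median log2 ratio of 0.15. Fut7, the fucosyltransferase that completes L-selectin ligands, ranged from 1.18 to 2.85 with a median of 1.73 (1.84 ± 0.59, adjusted p = 0.00016), with the pool well above background on 1 of 6 arrays. Glycam1, a mucin that carries these ligands, ranged from 0.44 to 3.17 with a median of 1.45 (1.53 ± 0.94, adjusted p = 0.0038). Both genes were above 0 in each mouse, though Glycam1 spread widely. Madcam1, the mucosal ligand of the integrin of Itgb7, was not well above background in the pool on any array. Its mean was at least 1.38-fold higher in NOD islets (adjusted p = 0.0051), with a log2 ratio of 0.24 in the lowest mouse. Mfge8, which follicular dendritic cells use to tag dying cells for uptake, averaged 1.61 ± 0.46 (adjusted p = 1e-04). On the lower side, Icam1, an adhesion molecule induced by inflammatory signals, averaged −1.29 ± 0.39 (adjusted p = 0.00014). Lyve1, a marker of lymphatic vessels, averaged −0.68 ± 0.29 (adjusted p = 0.00087). Among general endothelial genes, 6 of 20 tested members were called higher and 5 lower, with a median log2 ratio of 0.085. These are 30% and 25%, near the 28.3% and 22% of all genes. Vwf, a clotting protein of endothelium, averaged 0.90 ± 0.44. Egfl7, a secreted endothelial protein, averaged 0.70 ± 0.33. By contrast, the junction protein Cdh5 averaged −0.61 ± 0.27. Emcn, a sialomucin of capillaries and veins, averaged −0.58 ± 0.21. Under median centring 12 endothelial genes were called higher and 5 lower (60% and 25%, against 37.7% and 36.9% of all genes).

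Regulators of the leukocyte cytoskeleton were higher almost without exception. Of the actin cytoskeleton regulators made mainly by blood cells, 28 of 29 tested members were called higher and 1 lower, with a median log2 ratio of 1.42. Coro1a, an actin-binding protein needed for T cell survival, ranged from 2.13 to 3.27 with a median of 2.59 (mean 2.59 ± 0.39, 6.03-fold higher, adjusted p = 9.2e-06). Myo1g, a myosin of lymphocyte membranes, averaged 2.58 ± 0.49 (adjusted p = 2.1e-05). Arhgap45, a GTPase-activating protein, averaged 2.58 ± 0.64 (adjusted p = 5.2e-05). These genes were above 0 in 6 of 6 mice. Cyth4, an exchange factor for Arf GTPases, was the lower one at −0.30 ± 0.31 (adjusted p = 0.042). Its other probes gave 0.42, 0.07 and 0.59, so its direction depends on the probe, and its sign also turned under median centring (0.21). Among leukocyte integrins and adhesion molecules, 17 of 25 tested members were called higher and 3 lower, with a median log2 ratio of 0.62. Itgb7, a subunit of gut- and islet-homing integrins, ranged from 2.24 to 3.67 with a median of 2.95 (mean 2.94 ± 0.50, 7.68-fold higher, adjusted p = 1.3e-05). Cd52, a small surface glycoprotein of lymphocytes, averaged 2.47 ± 0.49 (adjusted p = 2.4e-05). Spn, a sialomucin of T cells, averaged 2.32 ± 0.50 (adjusted p = 3.1e-05). Each mouse was above 0 for these. Itga6, an integrin subunit of epithelium and endothelium, averaged −0.23 ± 0.21 (adjusted p = 0.035) and turned to 0.061 under median centring.

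Phosphatases and adaptors that set the threshold of leukocyte signalling were higher as a rule, in that 24 of 28 tested members were called higher and 0 lower, with a median log2 ratio of 1.17. Ptprc, which encodes CD45, the pan-leukocyte phosphatase, ranged from 1.84 to 3.27 with a median of 2.44 (mean 2.43 ± 0.51, 5.38-fold higher, adjusted p = 3e-05). Dusp2, a phosphatase of activated lymphocytes, averaged 2.20 ± 0.47 (adjusted p = 3.1e-05). Rgs1, a brake on chemokine receptor signalling, averaged 1.79 ± 0.55 (adjusted p = 0.00014). Small lymphocyte GTPases of the Gimap family, which support lymphocyte survival, were all called higher, 7 of 7 with a median of 0.62, although under median centring 4 were higher and 1 lower (57.1% and 14.3%, against 37.7% and 36.9% of all genes). Gimap1 ranged from 1.16 to 2.51 with a median of 1.34 (1.55 ± 0.52, adjusted p = 2e-04). Gimap9 averaged 0.93 ± 0.32. Gimap6 averaged 0.85 ± 0.38. Their pool signal was weak, above background on 5 of 6 arrays for Gimap1 and Gimap9. All 10 tested members of the Ms4a family of four-pass membrane proteins were higher, with a median of 0.64. Ms4a6b averaged 1.87 ± 0.62. Ms4a4b, found in T cells, averaged 1.84 ± 0.73. Ms4a1, the B cell protein CD20, averaged 1.60 ± 0.83.

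For T cell receptor signalling, 20 of 25 tested members were called higher and 0 lower, with a median log2 ratio of 0.84. In 8 of the 25 the pool was not well above background on any array. These entered through the NOD channel alone, so a lower call was unlikely for them from the outset. Under median centring 20 were higher and 4 lower (80% and 16%, against 37.7% and 36.9% of all genes). Cd5 and Cd6, paired regulators of receptor signals, averaged 2.90 ± 0.45 and 2.69 ± 0.35, and Cd5 ranged from 2.44 to 3.53 with a median of 2.86 (7.46-fold higher, adjusted p = 1e-05). Cd3d, a signalling subunit of CD3, averaged 2.58 ± 0.60 (adjusted p = 4e-05). The mice were all above 0 for these genes. Cd3e, the partner chain, averaged 0.18 ± 0.13 (adjusted p = 0.027) with mouse 2 at −0.086, so that the single probes of subunits of 1 complex gave very different ratios. For B cell receptor signalling, 21 of 24 tested members were called higher and 0 lower, with a median log2 ratio of 0.55. In 6 of the 24 the pool was likewise not well above background on any array. Median centring gave 17 higher and 2 lower members (70.8% and 8.33%). Cd72, an inhibitory coreceptor, averaged 2.03 ± 0.34 (adjusted p = 1.3e-05). Plcg2, a phospholipase below the receptor, averaged 1.97 ± 0.36 (adjusted p = 2e-05). Cd79b, a signalling chain, averaged 1.87 ± 0.74 (adjusted p = 0.00044). Cd79a, its partner, averaged 0.028 ± 0.13 (adjusted p = 0.7), with a pool signal that was not well above background on any array. Ighm, the heavy chain of IgM, ranged from 2.01 to 3.70 with a median of 2.70 (mean 2.67 ± 0.59, 6.38-fold higher, adjusted p = 3.4e-05). All 6 mice lay above 0 for Ighm.

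Genes of the germinal centre, where B cells mature, and of plasma cells were divided, in that 14 of 22 tested members were called higher and 4 lower, with a median log2 ratio of 0.32. Pou2af1, a coactivator of B cells needed for germinal centres, ranged from 1.77 to 3.57 with a median of 2.28 (mean 2.39 ± 0.67, 5.24-fold higher, adjusted p = 8.8e-05). Tnfrsf13c, the receptor for the B cell survival factor BAFF, averaged 1.23 ± 0.55 (adjusted p = 0.00082). Jchain, which joins secreted immunoglobulins, averaged 1.11 ± 0.70 (adjusted p = 0.0043). Jchain was below 0 in its lowest mouse (−0.14) and above it in the others. Of the plasma cell genes that the exocrine pancreas or other epithelium also expresses, Derl3 averaged −0.79 ± 0.60 (adjusted p = 0.011). Sdc1 averaged −0.58 ± 0.10 (adjusted p = 6.2e-05). Under median centring 9 members of the list were higher and 6 lower (40.9% and 27.3%, against 37.7% and 36.9% of all genes).

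Among 39 tested transcription factors of lymphocytes 26 were higher and 3 lower, with a median of 0.29. These are 66.7% and 7.69%, against 28.3% and 22% of all genes. For 13 of the 39 the pool was not well above background on any array, so they entered through the NOD channel alone. Under median centring 18 were higher and 11 lower (46.2% and 28.2%, against 37.7% and 36.9% of all genes). Irf8, a factor of dendritic cells and B cells, averaged 1.81 ± 0.40 (adjusted p = 3.6e-05). Satb1, a chromatin organiser of T cells, averaged 1.52 ± 0.48 (adjusted p = 0.00016). Klf2, which keeps T cells circulating, gave −0.73 ± 0.54 (adjusted p = 0.009) on its brighter probe and 1.02 on the other, and Elf1 gave −0.47 ± 0.23 (adjusted p = 0.002), with other probes at 0.029 and 0.22. The direction of Klf2 and Elf1 therefore depends on the probe. Foxp3, the factor of regulatory T cells, was near background and not well above it in the pool on any array. With loess its mean was at least 1.08-fold higher (adjusted p = 0.021). Under median centring it turned to −0.54, so its direction depends on the scaling.

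Of genes of cytotoxic cells, 17 of 22 tested members were called higher and 0 lower, with a median log2 ratio of 0.48. For 13 of the 22 the pool was not well above background on any array, so they entered through the NOD channel alone. Ifng, the gene of interferon gamma, ranged from 1.85 to 3.38 with a median of 2.17 (mean 2.43 ± 0.61, 5.4-fold higher, adjusted p = 5.4e-05). Nkg7, a protein of cytotoxic granules, averaged 2.57 ± 0.52 (adjusted p = 2.5e-05). Klrd1, a receptor chain of natural killer and T cells, was not well above background in the pool and was at least 3-fold higher (adjusted p = 0.00034). All mice lay above 0 for these genes. Gzmb, the granule protease granzyme B, was also below the pool's background limit and was at least 1.34-fold higher (adjusted p = 0.012), a call that median centring lost (adjusted p = 0.14). Of the cytotoxic list 11 members were higher and 4 lower under median centring (50% and 18.2%, against 37.7% and 36.9% of all genes).

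Of co-stimulatory and inhibitory receptors, 19 of 26 tested members were called higher and 0 lower, with a median log2 ratio of 0.33. For 16 of the 26 the pool was not well above background on any array. These entered through the NOD channel alone, so a lower call was unlikely for them from the outset. Under median centring 14 members were higher and 6 lower (53.8% and 23.1%, against 37.7% and 36.9% of all genes). Icos, a receptor of helper T cells, ranged from 0.74 to 2.54 with a median of 1.66 (1.70 ± 0.65, adjusted p = 0.00037), and its ligand Icosl averaged 1.18 ± 0.49 (adjusted p = 0.00061), with 2.16 in mouse 4. Havcr2, the inhibitory receptor TIM-3, averaged 1.25 ± 0.29 (adjusted p = 5e-05). In the tumour necrosis factor (TNF) superfamily 16 of 28 tested members were called higher and 6 lower, with a median log2 ratio of 0.27. Ltb, lymphotoxin beta, which instructs lymphoid stroma, ranged from 2.06 to 3.47 with a median of 2.48 (mean 2.57 ± 0.52, 5.94-fold higher, adjusted p = 2.4e-05). Its probe lies in the MHC (chromosome 17, 35333097 to 35333156, mm9), where the strains differ in alleles, so that level and probe match cannot be told apart. Tnfrsf4 (OX40) and Tnfrsf18 (GITR), receptors of activated and regulatory T cells, averaged 2.05 ± 0.44 and 1.60 ± 0.41. The 6 mice were all above 0 for Ltb and both receptors. Under median centring 11 members of this family were higher and 7 lower (39.3% and 25%, against 37.7% and 36.9% of all genes). With loess the lower members made up 21.4% of the list, close to the 22% of all genes, and 2 of them are given here. Fas, a death receptor, averaged −0.55 ± 0.30 (adjusted p = 0.003). Tnfrsf11b, a soluble decoy receptor, averaged −0.80 ± 0.21 (adjusted p = 1e-04).

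The MHC class II pathway was raised almost throughout, in that 17 of 20 tested members were called higher and 2 lower, with a median log2 ratio of 1.40. H2-Ab1, the beta chain of I-A, ranged from 2.62 to 3.17 with a median of 2.98 (mean 2.96 ± 0.20, 7.8-fold higher, adjusted p = 8.7e-07), with its probe at chromosome 17, 34406059 to 34406118 (mm9). Cd74, the invariant chain that guides class II molecules, averaged 2.40 ± 0.34 (adjusted p = 7.9e-06). Ciita, the master coactivator of class II genes, averaged 1.57 ± 0.60 (adjusted p = 0.00038) with the pool well above background on 2 of 6 arrays. All 6 mice were above 0 for these. H2-Aa, the alpha chain, averaged 2.47 ± 0.24 (adjusted p = 2e-06) on its brighter probe and −0.88 on the other. The strains differ in MHC alleles, so for a probe within an MHC gene the level and the match of the allele to the probe cannot be told apart, while Cd74, Ciita and Ctss, a cathepsin that trims the invariant chain (1.98 ± 0.44, adjusted p = 3.7e-05), lie on other chromosomes. Ctsl, a related cathepsin, averaged −0.65 ± 0.17 (adjusted p = 0.00015).

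For class I antigen processing, 18 of 25 tested members were called higher and 3 lower, with a median log2 ratio of 0.62. Psmb8 and Psmb9, subunits of the immunoproteasome, averaged 2.62 ± 0.40 and 2.04 ± 0.22 with probes in the MHC, and Psmb8 ranged from 2.03 to 3.14 with a median of 2.70 (6.15-fold higher, adjusted p = 9.9e-06). B2m, the light chain of class I molecules on chromosome 2, ranged from 1.31 to 2.70 with a median of 2.10 (mean 2.08 ± 0.57, 4.22-fold higher, adjusted p = 8.3e-05). Every mouse lay above 0 for the 3 genes. The class I heavy chain H2-K1 had 4 probes that gave 0.73, 0.52, 0.26 and −1.57. The lower members with the largest size were chaperones that load class I molecules and serve the endoplasmic reticulum generally, Calr at −0.87 ± 0.18 (adjusted p = 4.5e-05) and Pdia3 at −0.54 ± 0.38 (adjusted p = 0.0083), the latter reaching 0.00081 under median centring.

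The MHC lies on chromosome 17, the part of the genome where NOD.B10 is known to differ. In the window from 30 to 35 Mb (mm9) 69 of 120 tested genes were called (57.5%, against 50.3% on all other chromosomes), and 20 were 2-fold different (16.7% against 3.76%). The share called was higher elsewhere on the chromosome, with 38 of 60 genes between 55 and 60 Mb (63.3%, of which 7 were 2-fold different, 11.7% of the genes tested), 14 of 21 between 75 and 80 Mb (66.7%) and 19 of 32 between 85 and 90 Mb (59.4%). Of these 20, 16 were higher and 4 lower. The higher ones include 6 class II genes, Psmb8, Psmb9, the transporter-associated Tapbp and the complement genes C2, C4b and Cfb. Between 34 and 36 Mb 21 of 103 genes were 2-fold different (20.4%). Genes called in 1 direction at all 3 ages made up 12.5% of the 30 to 35 Mb window and 8.81% of other chromosomes, where windows of 5 Mb with 20 or more tested genes reached 23.5%. A pair of them, named after their values were seen, was nearly constant. Zfand3, a zinc finger gene, averaged −1.29 ± 0.073 at 12 weeks, −1.35 at 4 weeks and −1.29 at 10 days. Glo1, which detoxifies methylglyoxal, averaged 0.99 ± 0.076, 1.09 and 1.07, with called probes of opposite sign. How far such ratios come from allele sequence was not tested.

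Families induced by interferon gave different counts, a difference that was not tested. Of the guanylate-binding proteins and immunity-related GTPases, which attack vacuoles of intracellular pathogens, 11 of 17 tested members were called higher and 1 lower, with a median log2 ratio of 0.93. The lower one was Mx2, which is also on the type I list. Igtp ranged from 0.61 to 2.93 with a median of 1.97 (1.94 ± 0.78, adjusted p = 0.00047). Tgtp1 averaged 1.88 ± 0.80 (adjusted p = 0.00061). Gbp2 averaged 1.62 ± 0.68 (adjusted p = 0.00057). All 6 mice were above 0 for these, mouse 6 lowest. In the wider list of the interferon gamma response, 20 of 30 tested members were called higher and 3 lower, with a median log2 ratio of 0.76. Its lower members with the largest size were Cxcl10 and Icam1, given above.

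Among genes of the type I interferon response, 10 of 31 tested members were called higher and 7 lower, with a median log2 ratio of 0.043, close to the shares over all genes. Zbp1, a sensor of nucleic acids, ranged from 1.04 to 2.98 with a median of 1.59 (1.76 ± 0.69, adjusted p = 0.00042). Bst2, which tethers budding virus, averaged 1.42 ± 0.52 (adjusted p = 0.00032). Ifitm1, which blocks viral entry, averaged 0.91 ± 0.25 (adjusted p = 0.00011). On the lower side Rsad2 (viperin) ranged from −3.21 to −1.33 with a median of −1.91 (mean −2.05 ± 0.65, 4.13-fold lower, adjusted p = 0.00016), with 3 of 3 probes lower. Mx2, an antiviral GTPase, averaged −2.02 ± 0.73 (adjusted p = 0.00029). No mouse lay below 0 for Zbp1, Bst2 or Ifitm1, and no mouse above 0 for Rsad2 or Mx2. Mouse 4 gave the highest value for each of Zbp1, Bst2, Rsad2 and Mx2.

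The letters printed above can be set beside these counts. Of the 17 tested members of the GTPase list 8 had a window. Mx2, the only member called lower, had none, so no lower call could occur among these windows. The interferon-stimulated response element was found in 8 of 8 GTPase windows, of which 6 belonged to genes called higher and 0 to genes called lower. It was also found in 9 of 23 windows of the type I list (39.1%), with 4 genes higher, 3 lower and 2 not called, against 2.71% of the windows of all genes tested and 3.04% of all 27025 windows. The gamma-activated site was found in 5 of 8 GTPase windows (62.5%) against 6.01% and 7.18%. Both motifs shared bases in 9 tested windows and in 0 of the GTPase windows. The element alone thus stood in windows of genes with ratios of either sign.

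**Figure D3:**
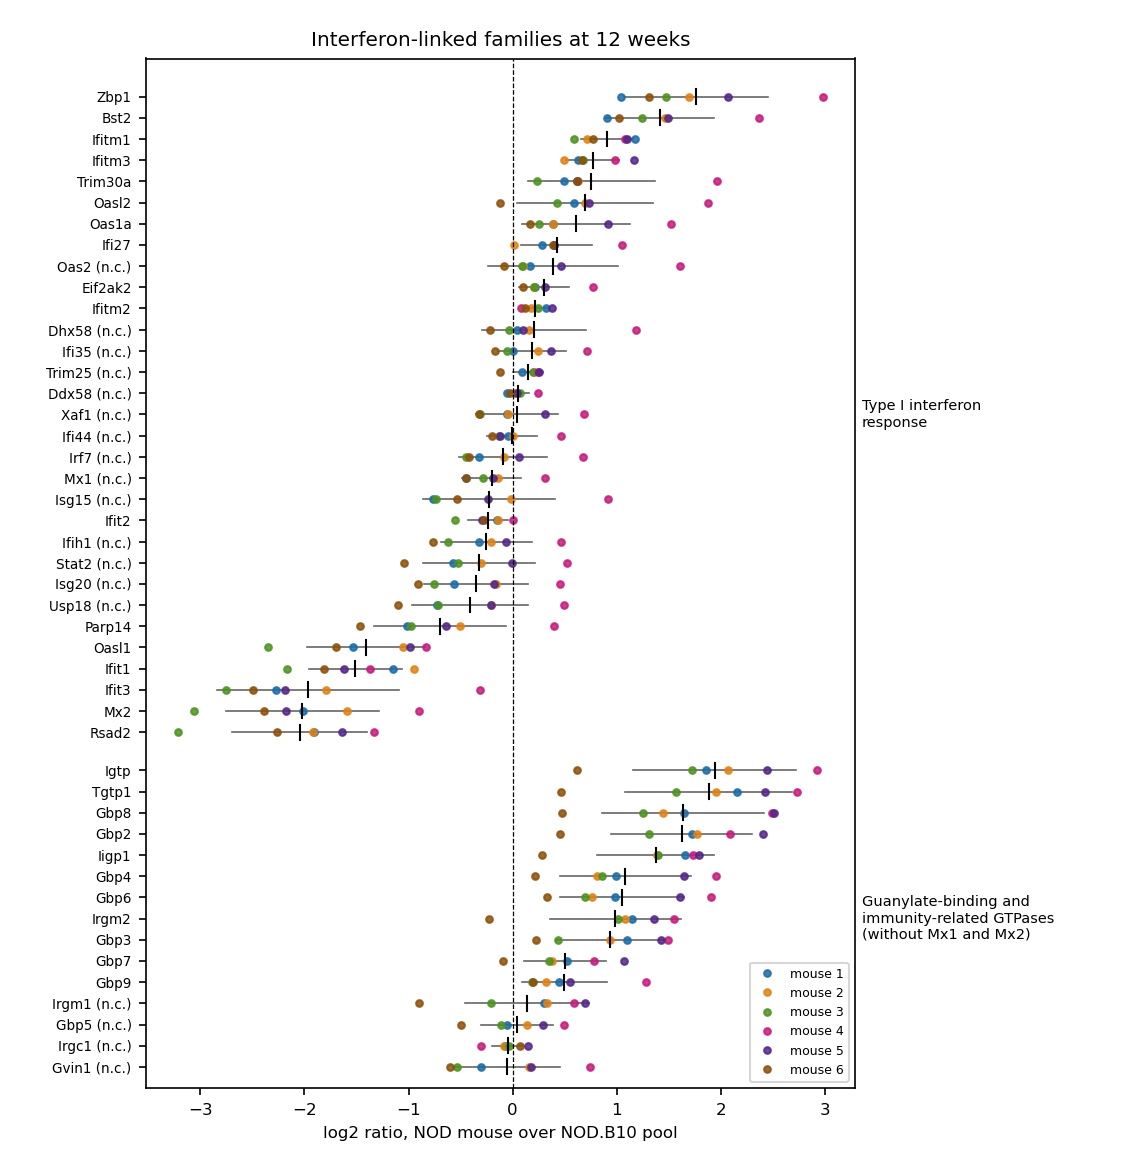
Log2 ratio of each 12-week-old NOD mouse (coloured points) over the NOD.B10 pool for 31 genes of the type I interferon response and 15 GTPases (Mx1 and Mx2 stand in the first group), with the mean (black mark) and 1 SD (grey line) over 6 mice, where n.c. marks genes not called. Igtp, Tgtp1 and Gbp2 lie above 0 in all 6 mice, Rsad2 and Mx2 lie below 0 in all 6, and mouse 6 is lowest for the GTPases at the top of their group.

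Cytokine genes were split. Of the interleukins and related cytokines, 8 of 25 tested members were called higher and 9 lower, with a median log2 ratio of 0.011. These are 32% and 36%, against 28.3% and 22% of all genes. Il6, a cytokine of acute inflammation made by many tissue cells, had the lowest mean ratio of all genes tested. It ranged from −5.08 to −3.65 with a median of −3.88 (mean −4.17 ± 0.58, 18-fold lower, adjusted p = 6.5e-06), with its probe at chromosome 5, 30346362 to 30346421 (mm9), and all 6 mice lay far below 0. Il22, a cytokine that acts on epithelium, averaged −1.10 ± 0.25 (adjusted p = 5.3e-05) with NOD islets above background on 1 of 6 arrays. Csf3, which drives neutrophil production, averaged −1.02 ± 0.28 (adjusted p = 0.00011). Against these, Il34, a growth factor of macrophages, averaged 1.61 ± 0.29 (adjusted p = 2e-05). Il21, a helper cytokine, was not well above background in the pool. With loess its mean was at least 1.14-fold higher (adjusted p = 0.0038). Under median centring it turned to −0.38, so its direction depends on the scaling. At that setting 5 of the list were higher and 14 lower (20% and 56%, against 37.7% and 36.9% of all genes).

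Of the cytokine receptors and their signalling genes, 22 of 45 tested members were called higher and 4 lower, with a median log2 ratio of 0.22. Il2rb, a chain of the receptors for interleukins 2 and 15, ranged from 1.47 to 2.74 with a median of 1.90 (mean 2.01 ± 0.48, 4.02-fold higher, adjusted p = 4.8e-05). Csf2rb, the common chain of myeloid growth factor receptors, averaged 1.67 ± 0.49 (adjusted p = 0.00012) with 1 of 3 probes called. Osmr, the oncostatin M receptor, averaged −1.24 ± 0.28 (adjusted p = 4.7e-05). Cish, an inhibitor induced through STAT5, averaged −1.54 ± 0.57 (adjusted p = 0.00032). For each of the 4 genes all mice lay on the same side of 0. In the NF-kB pathway, the main route of inflammatory transcription, 10 of 28 tested members were called higher and 9 lower, with a median log2 ratio of 0.06. These are 35.7% and 32.1%, against 28.3% and 22% of all genes. Traf1, an adaptor of TNF receptors, averaged 1.31 ± 0.50 (adjusted p = 0.00039). Tnfaip3, which ends NF-kB signals, averaged 1.03 ± 0.69 (adjusted p = 0.0059). Bcl3, a nuclear partner of NF-kB, averaged −1.64 ± 0.47 (adjusted p = 0.00011). Rela, a core subunit, averaged −1.23 ± 0.21 (adjusted p = 2.1e-05) with both probes lower.

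The lists of innate sensors are set beside 28.3% higher and 22% lower of all genes. Among Toll-like and C-type lectin receptors, 12 of 24 tested members were called higher (50%) and 5 lower (20.8%), with a median log2 ratio of 0.18. Under median centring 9 were higher and 9 lower (37.5% each), close to the 37.7% and 36.9% of all genes. Ly86, a partner of the sensor RP105 on B cells and myeloid cells, averaged 1.53 ± 0.44 (adjusted p = 0.00011). Unc93b1, which carries Toll-like receptors to endosomes, averaged 1.32 ± 0.34 (adjusted p = 7.1e-05). Clec7a, a receptor for fungal glucans, averaged 1.17 ± 0.47 (adjusted p = 0.00053). Cd14, the coreceptor for lipopolysaccharide, ranged from −2.29 to −1.45 with a median of −1.88 (mean −1.87 ± 0.33, 3.65-fold lower, adjusted p = 1.8e-05). Tlr2, a receptor for bacterial lipopeptides, averaged −1.42 ± 0.34 (adjusted p = 5.1e-05). All 6 mice lay below 0 for Cd14 and Tlr2. Among Ifi200 genes and inflammasome components, 5 of 15 tested members were called higher (33.3%) and 2 lower (13.3%), with a median log2 ratio of 0.16. Gsdmd, the pore-forming effector of pyroptosis, averaged 1.25 ± 0.41 (adjusted p = 2e-04). Casp1, the inflammatory caspase, averaged 0.92 ± 0.52 (adjusted p = 0.0027). Pycard, the adaptor of inflammasomes, averaged 0.76 ± 0.35 (adjusted p = 0.0011). Casp4, the sensor of cytosolic lipopolysaccharide, averaged −1.05 ± 0.67 (adjusted p = 0.0047). Ifi202b, a DNA-binding protein induced by interferon, averaged −0.68 ± 0.64 (adjusted p = 0.025).

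The complement system tags and lyses targets, and of its genes 15 of 22 tested members were called higher and 2 lower, with a median log2 ratio of 0.74. C4b ranged from 2.36 to 3.14 with a median of 2.61 (mean 2.69 ± 0.35, 6.46-fold higher, adjusted p = 5.3e-06). C3, the central component, averaged 2.26 ± 0.50 (adjusted p = 3.5e-05). Cfb, the protease of the alternative pathway, averaged 2.14 ± 0.39 (adjusted p = 1.8e-05). In each mouse these genes were above the pool. C4b and Cfb lie in the MHC and C3 elsewhere on chromosome 17, while the subunits of the first component on chromosome 4, named after their values were seen, were also higher. C1qa averaged 1.32 ± 0.25 (adjusted p = 2.4e-05). C1qb averaged 1.31 ± 0.28. C1qc averaged 1.73 ± 0.28. Cfd, a further alternative pathway protease known from adipocytes, was not well above background in NOD islets on any array and was at least 3.65-fold lower (adjusted p = 3.3e-05). Clu, a regulator that ducts also express, averaged −0.72 ± 0.35 (adjusted p = 0.0014).

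Fc receptors and their adaptors link antibody to leukocytes, and of these 15 of 24 tested members were called higher and 2 lower, with a median log2 ratio of 0.34. These are 62.5% and 8.33%, against 28.3% and 22% of all genes. For 9 of the 24 the pool was not well above background on any array, so they entered through the NOD channel alone. Under median centring 11 were higher and 8 lower (45.8% and 33.3%, against 37.7% and 36.9% of all genes). Pirb, an inhibitory receptor of B and myeloid cells, averaged 2.07 ± 0.33 (adjusted p = 1.2e-05). Fcmr, the receptor for IgM, averaged 1.57 ± 0.65 (adjusted p = 0.00054). Fcgr1, the high-affinity IgG receptor, averaged 1.43 ± 0.33 (adjusted p = 4.4e-05). Trem2, a lipid receptor of macrophages, averaged −1.06 ± 0.22 (adjusted p = 3.6e-05) with both probes lower. Cd300a gave −0.69 on its brighter probe and 0.35 on the other.

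Macrophage and dendritic cell genes were mostly higher, in that 18 of 24 tested members were called higher and 1 lower, with a median log2 ratio of 0.42. Aif1, a calcium-binding protein of macrophages, ranged from 1.91 to 2.45 with a median of 2.04 (mean 2.11 ± 0.23, 4.32-fold higher, adjusted p = 2.8e-06), and its probe also lies in the MHC (chromosome 17, 35307959 to 35308018, mm9). Adgre1, which encodes F4/80, averaged 0.57 ± 0.33 (adjusted p = 0.0035). Marco, a scavenger receptor of resident macrophages, ranged from −3.77 to −0.021 with a median of −3.01 (−2.67 ± 1.39, adjusted p = 0.0016). For Marco mouse 4 lay near 0 and the others between −3.77 and −2.49. Cd209b, a lectin of marginal zone macrophages and one of the lowest ratios measured, averaged −2.42 ± 1.02 (adjusted p = 0.00058) with NOD islets above background on 4 of 6 arrays. Of the defining markers of neutrophils S100a8 and Ngp, and of mast cells Cpa3, Tpsb2 and Mcpt4, did not reach the level at which probes entered the test. S100a9, a neutrophil marker near background in both channels, averaged −0.06 ± 0.28 (adjusted p = 0.63). The natural killer cell markers Ncr1 and Klrb1c did not enter either.

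Most genes of cell division were called higher in NOD islets. In DNA replication 25 of 31 tested members were called higher and 0 lower, with a median log2 ratio of 0.57, and in mitosis 27 of 33 tested members were called higher and 0 lower, with a median log2 ratio of 0.50. For 15 of the 33 mitosis genes and 5 of the 31 replication genes the pool was not well above background on any array. These entered through the NOD channel alone. Under median centring 23 replication genes were higher and 3 lower (74.2% and 9.68%). At that setting 19 mitosis genes were higher and 8 lower (57.6% and 24.2%), against 37.7% and 36.9% of all genes. Mcm3, a subunit of the replicative helicase, ranged from 1.37 to 2.43 with a median of 1.94 (mean 1.94 ± 0.41, 3.83-fold higher, adjusted p = 3.2e-05). Mcm6, whose window is printed above, averaged 1.42 ± 0.37 (adjusted p = 7.1e-05). Birc5 (survivin), part of the chromosomal passenger complex, averaged 1.91 ± 0.44 (adjusted p = 4.2e-05). Cenpe, a kinetochore motor, averaged 1.58 ± 0.44 (adjusted p = 9.7e-05). Mki67, a marker of cycling cells, averaged 1.38 ± 0.49 (adjusted p = 0.00029). All 6 mice were above 0 for these genes, and which cells divided was not measured. The E2F letters were found in 4 of 25 replication windows (16%), against 1.84% of the windows of genes tested and 1.15% of all windows. They were found in a similar share of the class I processing windows, 3 of 20 (15%), and in 3 of 27 mitosis windows (11.1%). Of the apoptosis genes, 16 of 30 tested members were called higher and 6 lower, with a median log2 ratio of 0.20. These are 53.3% and 20%, against 28.3% and 22% of all genes. Pmaip1 (Noxa), which triggers mitochondrial death, averaged 1.90 ± 0.35 (adjusted p = 2e-05). The survival gene Bcl2 averaged 0.96 ± 0.44 (adjusted p = 0.001) with 1.84 in mouse 4. Birc3, an inhibitor of apoptosis induced by NF-kB, averaged −1.18 ± 0.38 (adjusted p = 2e-04). Among enzymes of purine, lipid and immune metabolism, 16 of 33 tested members were called higher and 1 lower, with a median log2 ratio of 0.23. For 11 of the 33 the pool was not well above background on any array, so they entered through the NOD channel alone. Median centring gave 15 higher and 10 lower enzymes (45.5% and 30.3%, against 37.7% and 36.9% of all genes). Alox5ap, which enables leukotriene synthesis, averaged 1.54 ± 0.31 (adjusted p = 3e-05). Samhd1, which breaks down nucleotides, averaged 1.01 ± 0.44 (adjusted p = 0.00076). Sphk1, which makes sphingosine 1-phosphate, averaged −1.52 ± 0.23 (adjusted p = 1.2e-05).

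Beta cell genes were lower or not called. Of the genes of beta cell identity and glucose sensing, 0 of 28 tested members were called higher and 16 lower, with a median log2 ratio of −0.45. Ins2, the mouse gene equivalent to human insulin, ranged from −1.69 to −0.61 with a median of −1.33 (mean −1.25 ± 0.39, 2.37-fold lower, adjusted p = 0.00016), and Ins1 ranged from −1.33 to −0.44 with a median of −1.11 (mean −1.05 ± 0.33, 2.07-fold lower, adjusted p = 0.00018). Every NOD mouse lay below the pool for both insulin genes. Trpm5, a channel that supports insulin release, averaged −1.40 ± 0.72 (adjusted p = 0.0016). Ucn3, a marker of mature beta cells, averaged −1.21 ± 0.80 (adjusted p = 0.0055). Slc2a2, the glucose transporter, averaged −1.14 ± 0.89 (adjusted p = 0.011), a call lost under median centring (adjusted p = 0.052). Mafa, a factor of mature beta cells, averaged −0.24 ± 0.29 (adjusted p = 0.07) and did not pass. Under median centring 12 members of the beta cell list were lower and 5 higher (42.9% and 17.9%, against 36.9% and 37.7% of all genes). Of islet autoantigens 4 of 12 were lower (33.3%, against 22% of all genes) and 0 higher. Beside the insulin genes these were G6pc2, a phosphatase that restrains glucose sensing, at −0.81 ± 0.39 (adjusted p = 0.0014), and Gad1, which makes the transmitter GABA, at −0.52 ± 0.38 (adjusted p = 0.01). Median centring gave 5 higher and 4 lower autoantigens (41.7% and 33.3%, against 37.7% and 36.9% of all genes). The direction of that list thus depends on the scaling. Leukocyte genes were higher in the same RNA, with 24 of 28 phosphatases and adaptors higher and Ptprc above 0 in all 6 mice, and their part in the lower beta cell ratios was not tested.

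With loess, genes of the other endocrine cells were called in shares near those of all genes. Of other hormones and their regulators, 5 of 15 tested members were called higher and 4 lower, with a median log2 ratio of 0.10. These are 33.3% and 26.7%, against 28.3% and 22% of all genes. Under median centring 9 were higher and 5 lower (60% and 33.3%, against 37.7% and 36.9% of all genes), so these shares depend on the scaling. Gcg, glucagon, averaged −0.26 ± 0.25 (adjusted p = 0.037) and turned to 0.36 under median centring. Sst, somatostatin, averaged 0.16 ± 0.31 (adjusted p = 0.25). Ppy, pancreatic polypeptide, averaged 0.67 ± 1.08 (adjusted p = 0.14). Sst and Ppy had mice on both sides of 0. Irx1, a factor of alpha cells, averaged 0.77 ± 0.23 (adjusted p = 2e-04). Npy, a neuropeptide, averaged −1.52 ± 0.73 (adjusted p = 0.0012). Of secretory granule and exocytosis genes, 2 of 23 tested members were called higher and 11 lower, with a median log2 ratio of −0.29. Sytl4 (granuphilin) averaged −0.77 ± 0.67 (adjusted p = 0.018). Resp18, a protein of endocrine granules, averaged −0.68 ± 0.33 (adjusted p = 0.0016). Vamp2, which fuses granules with the membrane, averaged −0.62 ± 0.12 (adjusted p = 6.8e-05), while the processing enzymes Cpe and Pam averaged 0.39 ± 0.33 and 0.37 ± 0.14. Median centring gave 6 higher and 5 lower granule genes (26.1% and 21.7%, against 37.7% and 36.9% of all genes at that setting), so the larger share of lower members was seen with loess and not there.

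Of the genes of endoplasmic reticulum stress, 3 of 28 tested members were called higher and 16 lower, with a median log2 ratio of −0.35. Ddit3 (CHOP), the factor of terminal stress, ranged from −3.12 to −1.81 with a median of −2.65 (mean −2.59 ± 0.55, 6.02-fold lower, adjusted p = 3e-05). Trib3, which Ddit3 induces, averaged −2.19 ± 0.22 (adjusted p = 2.4e-06). Chac1, a glutathione-degrading enzyme induced by ATF4, averaged −1.69 ± 0.55 (adjusted p = 0.00017). All 6 mice were below 0 for these. Sel1l, of the degradation complex, averaged 1.28 ± 0.64 (adjusted p = 0.0014) with 1 of 3 probes called. The endoplasmic reticulum stress element was found in 8 of 26 windows of this list (30.8%), with 6 genes lower, 0 higher and 2 not called, against 0.162% of the windows of genes tested and 0.122% of all, and it shared bases with no other motif searched. Under median centring 9 members of the endoplasmic reticulum stress list were higher and 9 lower (32.1% each, against 37.7% and 36.9% of all genes), so its direction depends on the scaling. Of antioxidant genes, 2 of 27 tested members were called higher and 15 lower, with a median log2 ratio of −0.23. The metallothioneins Mt1 and Mt2, which bind zinc and copper, averaged −2.27 ± 0.69 (adjusted p = 0.00013) and −2.17 ± 0.67 (adjusted p = 0.00014). Txnrd1, a target of Nrf2, averaged −1.58 ± 0.20 (adjusted p = 7.7e-06). These 3 genes were below 0 in each mouse. Gsr, glutathione reductase, gave 0.23 on its brightest probe and −0.34 and −0.16 on the others. Slc7a11, the cystine transporter, was not well above background in the pool. With loess its mean was at least 1.16-fold higher (adjusted p = 0.0049). Under median centring it turned to −0.39, so its direction depends on the scaling. Median centring gave 9 higher and 9 lower antioxidant genes (33.3% each, with the same shares of all genes as above).

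The Reg family, secreted lectins of injured or regenerating pancreas, held some of the lowest ratios, in that 0 of 6 tested members were called higher and 5 lower, with a median log2 ratio of −1.66. Reg3g ranged from −4.33 to −3.28 with a median of −3.99 (mean −3.90 ± 0.43, 14.9-fold lower, adjusted p = 2.4e-06), with its probe at chromosome 6, 78416420 to 78416479 (mm9). Reg3b averaged −3.04 ± 0.90 (adjusted p = 0.00011). Reg2 averaged −2.15 ± 0.90 (adjusted p = 0.00056), and each mouse lay below 0 for the 3 genes. After the ratios were scaled to 1 spread across arrays, 2 members of the list were called lower. Acinar cells, which make digestive enzymes and can express Reg genes, gave 2 higher and 1 lower of 29 genes with a median of −0.078. Their mean ratio by mouse ran from −1.26 in mouse 2 to 0.73 in mouse 6, and their part in the Reg ratios was not tested. The defining acinar markers Cpa1, Ctrb1, Cel, Pnlip, Ptf1a and Prss2 were well above background in both channels on all arrays and were not called. Amy2a5, an amylase, averaged 0.99 ± 0.92 (adjusted p = 0.024). Spink1, a trypsin inhibitor, averaged −1.06 ± 0.83 (adjusted p = 0.011). Without mouse 2, 6 acinar genes were called higher, without mouse 1, 3, 5 or 6 none were, and under median centring 15 were (51.7%, against 37.7% of all genes), so the count depends on the mouse and the scaling.

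Duct cell genes were lower, in that 3 of 31 tested members were called higher and 21 lower, with a median log2 ratio of −0.62. The keratins Krt8 and Krt19 of simple epithelium averaged −2.12 ± 0.50 (adjusted p = 4.5e-05) and −1.98 ± 0.21 (adjusted p = 2.8e-06), and Krt19 ranged from −2.22 to −1.59 with a median of −2.02. Cldn4, a tight junction protein, averaged −1.83 ± 0.25 (adjusted p = 7.7e-06), with mouse 2 at −1.35 and the others between −2.05 and −1.82. The 6 mice lay below 0 for all 3. Mmp7, a protease of injured epithelium, averaged 0.62 ± 0.47 (adjusted p = 0.01). Pigr, a receptor that carries antibodies across epithelium, was not well above background in the pool. With loess its mean was at least 1.14-fold higher (adjusted p = 0.0094). Under median centring it stood at −0.35, so its direction depends on the scaling.

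Acute-phase, immediate early and heat-shock genes, a list that includes genes known to respond to tissue handling, gave 3 higher and 18 lower of 34, with a median of −0.37. Il6, Ccl2 and Cebpd, a transcription factor of the acute phase (−2.23 ± 0.24, adjusted p = 2.8e-06), were its lowest members. Hspa1a and Hspa1b, inducible heat-shock proteins, averaged 1.50 ± 0.47 (adjusted p = 0.00015) and 1.44 ± 0.36 (adjusted p = 6e-05), and both lie in the MHC on chromosome 17. How the handling of the islets bears on Il6, Ccl2 and the stress genes was not tested.

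Genes of pancreatic stellate cells and matrix were higher, in that 23 of 32 tested members were called higher and 2 lower, with a median log2 ratio of 0.34. Tgfbi, a matrix protein induced by TGF-beta, ranged from 1.92 to 3.01 with a median of 2.42 (mean 2.41 ± 0.38, 5.31-fold higher, adjusted p = 1.1e-05). Thy1, which both T cells and fibroblasts carry, averaged 2.24 ± 0.27 (adjusted p = 4.5e-06). Col1a2, a chain of type I collagen, averaged 1.45 ± 0.38 (adjusted p = 7.6e-05). All mice lay above 0 for these. Timp1, an inhibitor of matrix proteases, averaged −1.44 ± 0.19 (adjusted p = 7.9e-06). Timp3 averaged −0.29 ± 0.23 (adjusted p = 0.018), turning to 0.20 under median centring. Ngfr, a receptor of glia and lymphoid stroma, averaged 1.73 ± 0.37 (adjusted p = 3.3e-05). The glial factor Sox10 was not well above background in the pool. With loess its mean was at least 1.23-fold higher (adjusted p = 0.002). Under median centring it stood at −0.028, so its call depends on the scaling. Of the glial, adipocyte and red blood cell genes together 2 of 10 were higher and 5 lower, among them Hba-a1, a globin, at −0.78 ± 0.33 (adjusted p = 0.00077) and Cidec, a lipid droplet protein, at −0.48 ± 0.12 (adjusted p = 0.00019).

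Outside the lists, the rule for the 15 highest and 15 lowest ratios named further genes. Wdfy4, which dendritic cells need for cross-presentation, ranged from 2.84 to 4.10 with a median of 3.03 (mean 3.17 ± 0.47, 9.02-fold higher, adjusted p = 7.9e-06). S100a4, a calcium-binding protein of motile cells, averaged 2.90 ± 0.53 (adjusted p = 1.8e-05). Ncf4, a subunit of the phagocyte oxidase, averaged 2.58 ± 0.50 (adjusted p = 2.2e-05). On the lower side, Fabp2, a fatty acid-binding protein, averaged −2.75 ± 0.68 (adjusted p = 5.1e-05). Fabp1, of the same family, averaged −2.47 ± 0.65 (adjusted p = 6.6e-05). Cidea, a lipid droplet protein, averaged −2.71 ± 0.28 (adjusted p = 2.4e-06). Lpin1, a phosphatidate phosphatase, averaged −2.52 ± 0.41 (adjusted p = 1.2e-05), with 4 of 4 probes lower. Msmo1, of cholesterol synthesis, averaged −2.42 ± 0.20 (adjusted p = 1.7e-06). Fhl2, a LIM-domain cofactor, ranged from −3.50 to −2.78 with a median of −3.08 (mean −3.12 ± 0.31, 8.68-fold lower, adjusted p = 1.9e-06). Defb1, an antimicrobial peptide of epithelium, averaged −2.76 ± 0.48 (adjusted p = 1.5e-05). Inhbb, a subunit of activin B, averaged −2.38 ± 0.25 (adjusted p = 2.4e-06). Tuba1a, a tubulin, averaged −2.35 ± 0.50 (adjusted p = 3.1e-05). For each of these genes all 6 mice lay on the same side of 0, which the rule required.

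The mean ratio of some immune lists had the same sign in all mice, while that of others did not, such as the chemokine ligands (from −0.373 to 0.259) and the NF-kB pathway (from −0.323 to 0.262). The mean ratio of the actin cytoskeleton regulators was 2.04 in mouse 4, 1.62 in mouse 5 and 0.97 in mouse 6. The GTPase list ran from 1.29 in mouse 4 to −0.11 in mouse 6, the type I interferon list from 0.62 in mouse 4 to −0.44 in mice 3 and 6, and the beta cell list from −0.96 in mouse 4 to −0.08 in mouse 2. These means are descriptions, since the mice were not grouped by the labels. Mice 1 to 4 were hybridised on 1 slide and mice 5 and 6 on another.

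**Figure D4:**
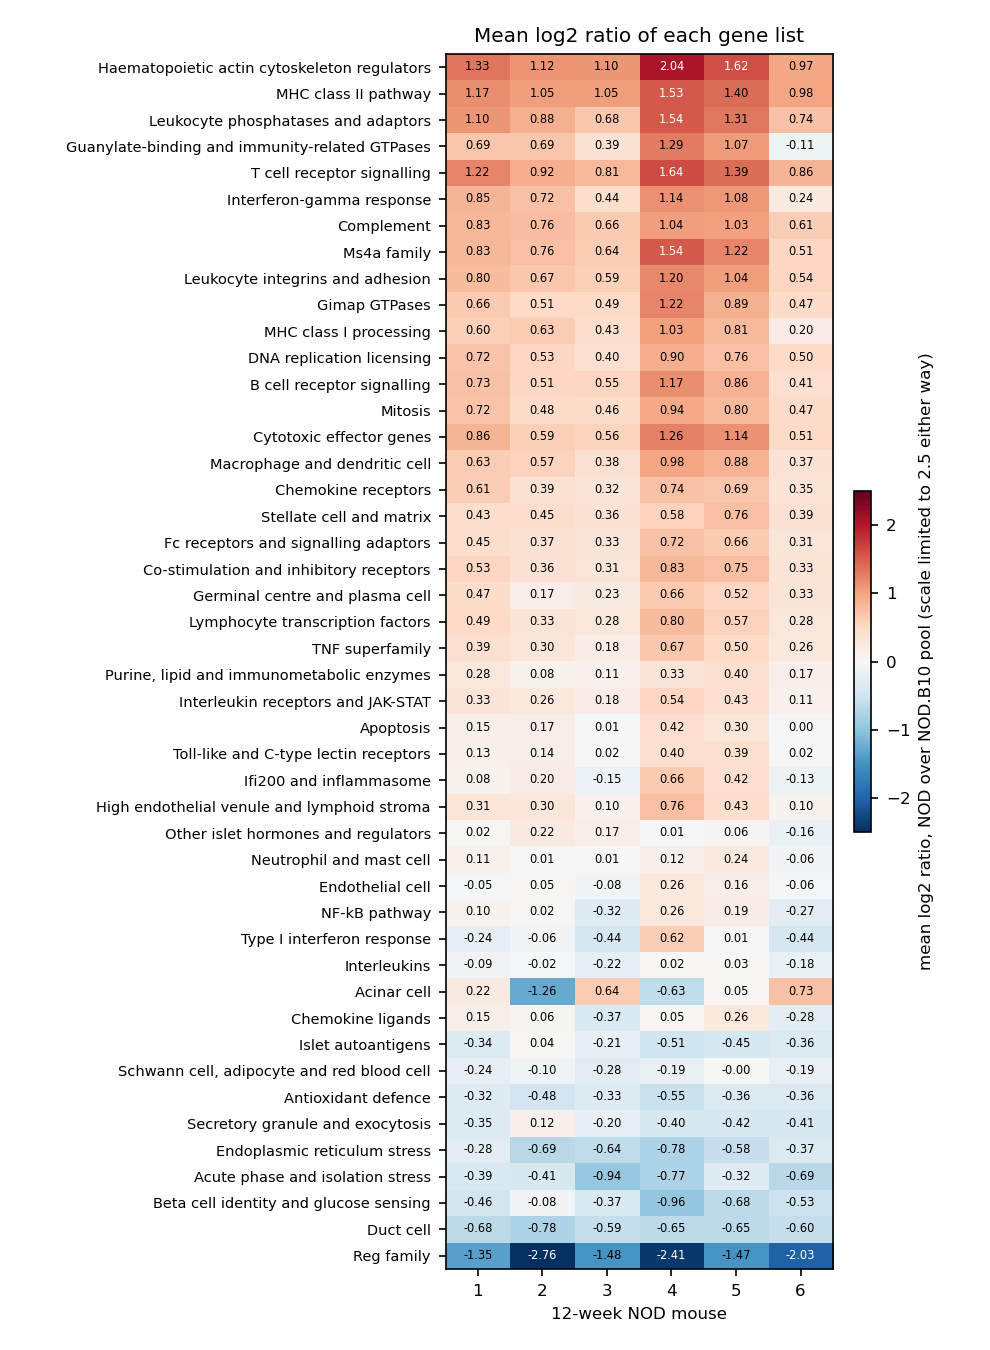
Mean log2 ratio over the NOD.B10 pool of the tested members of 46 gene lists in each of the 6 12-week-old NOD mice, with red above and blue below 0. Mouse 4 has the highest means for the actin cytoskeleton regulators (2.04) and the GTPases (1.29), mouse 6 the lowest GTPase mean (−0.11), and the acinar list runs from −1.26 to 0.73.

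To place the ratio at 12 weeks in time, a limma fit of all 18 arrays tested the difference between ages, each against its own pool. The ratio differed between 12 and 4 weeks for 8007 genes (48.5%) and between 12 weeks and 10 days for 8111 (49.2%). Of 32 genes compared singly 22 differed between 12 and 4 weeks. The pools differ between ages, so a change in the NOD.B10 islets and a change in the NOD islets cannot be told apart.

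Many immune genes of this set did not differ from 0 at 4 weeks, which does not show that the strains were alike then. Ccl19 averaged −0.68 ± 0.84 at 4 weeks and −0.45 ± 2.34 at 10 days, and its ratio was higher at 12 than at 4 weeks by 4.64 (adjusted p = 0.00015). Ifng averaged 0.086 ± 0.34 at 4 weeks, a difference of 2.35 (adjusted p = 2.8e-05), and Ltb 0.11 ± 0.86, a difference of 2.46 (adjusted p = 0.0024). C3 differed by 3.34 (adjusted p = 0.00065), Cxcl9 by 1.95 (adjusted p = 0.001), Ciita by 1.46 (adjusted p = 1e-04) and H2-Aa by 2.01 (adjusted p = 0.00056). Ptprc differed by 2.79 (adjusted p = 0.00056), Jchain by 1.22 (adjusted p = 0.0098), Adgre1 by 0.77 (adjusted p = 0.027) and Mki67 by 2.23 (adjusted p = 1.1e-06). The dimmer genes Gzmb and Il21 differed by 0.42 (adjusted p = 0.0082) and 0.21 (adjusted p = 0.046). Glycam1 was low at 4 weeks, at −3.16 ± 0.81, and differed by 4.69 (adjusted p = 6.5e-05), while Ccl21a, at −1.44 ± 0.29, differed by 1.53 (adjusted p = 0.035). The sign of the Glycam1 ratio thus changed between these ages. Cd3e had a lower ratio at 12 than at 4 weeks, with a difference of −0.42 (adjusted p = 0.0049).

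Il6 averaged −0.27 ± 1.34 at 4 weeks and −1.36 ± 1.21 at 10 days, and its ratio at 12 weeks was lower than at 4 weeks, with a difference of −3.90 (adjusted p = 6.9e-05). Reg3b and Krt19 also had lower ratios, with differences of −3.25 (adjusted p = 0.0088) and −2.44 (adjusted p = 6e-05). Among hormone and beta cell genes Sst, Ppy and Mafa had higher ratios at 12 than at 4 weeks, by 0.99 (adjusted p = 0.006), 1.54 (adjusted p = 0.026) and 0.64 (adjusted p = 0.0034). Ins1, Ins2, Slc2a2 and Gcg did not pass, with differences of 0.44 (adjusted p = 0.28), −0.52 (adjusted p = 0.2), −0.028 (adjusted p = 0.95) and 0.19 (adjusted p = 0.58). Both insulin genes were above 0 at 10 days, with 1.24 ± 0.93 for Ins1 and 1.83 ± 0.86 for Ins2, and below it at 4 weeks, with −1.49 ± 0.44 and −0.72 ± 0.52. Gbp2 was already at 1.18 ± 1.74 at 4 weeks, with a difference of 0.45 (adjusted p = 0.56), and Cxcl10 and Reg2, at 0.13 ± 1.88 and −0.019 ± 3.03 at 4 weeks, did not pass, with −1.48 (adjusted p = 0.083) and −2.13 (adjusted p = 0.088). Cxcl13, Foxp3 and Madcam1 did not pass either, with −0.23 (adjusted p = 0.66), 0.12 (adjusted p = 0.18) and 0.44 (adjusted p = 0.3).

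The medians of whole lists also differed between ages. The replication list had a median of −0.29 at 4 weeks and −0.46 at 10 days before 0.57 at 12 weeks, and the mitosis list −0.46 and −0.53 before 0.50. The endoplasmic reticulum stress list went from 0.55 at 4 weeks to −0.35, and the acinar list from 1.38 to −0.078. The beta cell list went from 1.14 at 10 days through −0.73 to −0.45. The GTPase list stood at 0.59 at 4 weeks and 0.93 at 12. The median over all genes stayed between −0.0054 and 0.031 at the 3 ages.

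**Figure D5:**
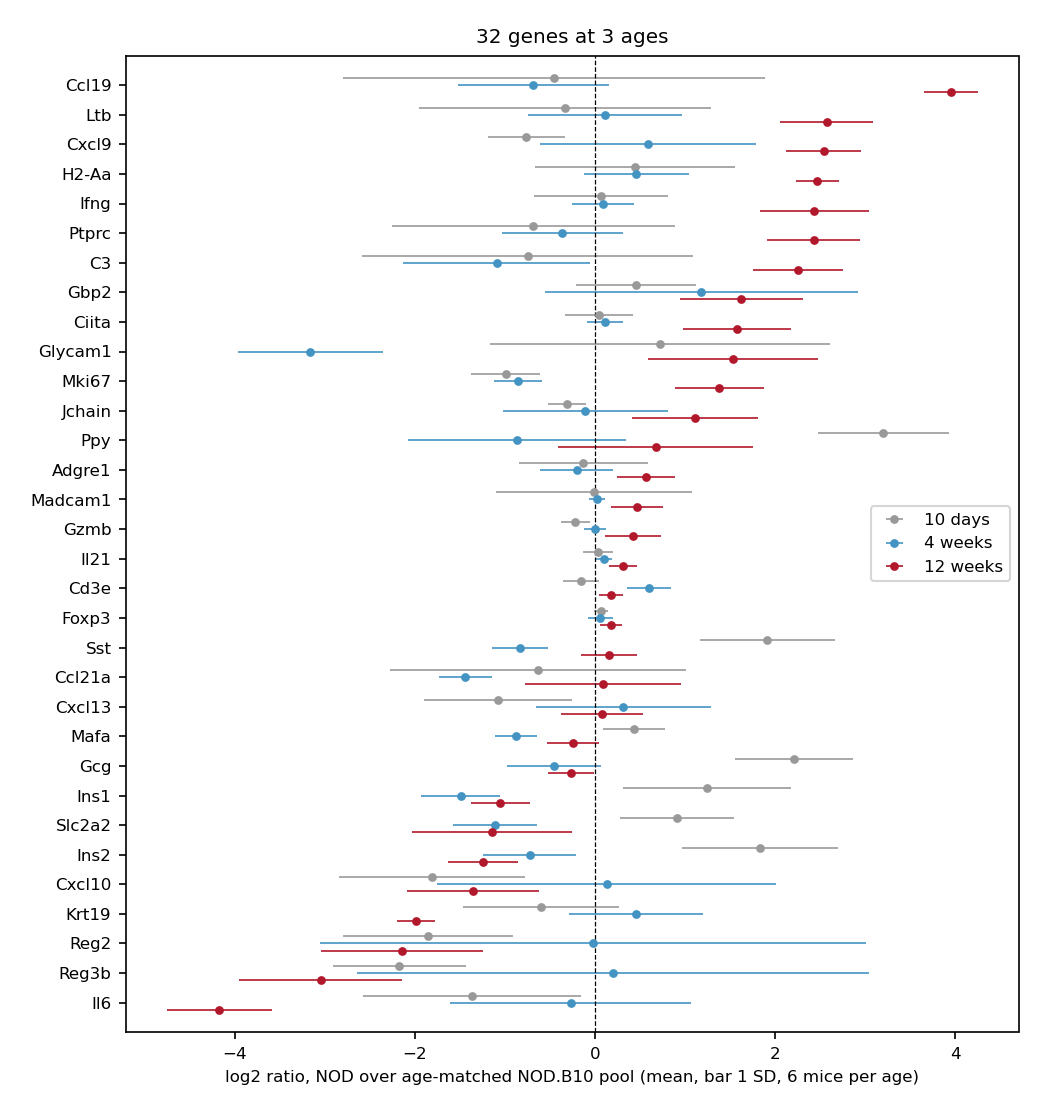
Mean log2 ratio of NOD over the age-matched NOD.B10 pool with 1 SD over 6 mice for 32 genes at 10 days (grey), 4 weeks (blue) and 12 weeks (red). Ifng and Ltb lie within 0.33 of 0 at both earlier ages and above 2.4 at 12 weeks, Il6 falls furthest below 0 at 12 weeks, and Ins1 and Ins2 are above 0 at 10 days and below it at 4 and 12 weeks.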

How the data were processed

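Islet RNA of 6 female NOD mice of 12 weeks was hybridised, each against 1 pool of 6 NOD.B10 mice, on 2-colour Agilent 4x44K arrays. Spots were read by the authors with Feature Extraction 10.7.3.1 and protocol GE2_107_Sep09 on array design 014868, whose probes are annotated on mm9, per the file headers. Each deposited scanner file gives a spot's mean intensity and local background in red (Cy5, NOD) and in green (Cy3, pool), its processed intensities and a log10 ratio, red over green. A second deposited file has the authors' log2 ratio of processed signals (it matched the scanner files on 40929 probes within 3.1e-06) and was used as an alternative.

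Starting from mean and background intensities, normexp correction (offset 50) and loess within each array were applied, with control spots and outlier marks at weight 0, using limma 3.58.1 (R 4.3.3) and the data.table package (version 1.17.8). Outlier spots were dropped (6 missing ratios). Spots of a probe were averaged, and a probe entered if well above background in either channel on at least 3 of the 6 arrays. The probe of highest mean brightness stood for a gene (5046 genes had more than 1, and 259 had called probes of opposite sign). Some named genes had a further probe that was not called, such as C3, Cd6, Birc3, Cdh5, Lyve1 and Slc2a2, each with 1 of 2 called. Names came from the array's accession (13114 genes), symbol (762) or synonym (123) through RefSeq's gene list, or stayed as on the array (2498). The mean of 6 arrays was tested against 0 with lmFit and eBayes (Benjamini-Hochberg, threshold 0.05), and differences between ages in a fit of all 18 arrays. For a gene whose channel stayed at background on all 6 arrays the text gives a bound, the bright channel's mean over the larger, array by array, of the dim probe's signal and the lowest signal of any probe above background. Such bounds are open to dye bias. They concern the mean of the 6 mice with loess, so single mice can lie below them. For Madcam1, Klrd1, Gzmb and Sox10 the bound equals the fold of the mean ratio. Foxp3, Il21, Pigr, Slc7a11 and Sox10 were below 0 under median centring, so their bounds do not hold across settings. In simulated data with independent noise, 200 of the 16497 genes were shifted. There the test recovered 80% of genes shifted by 0.5 and 96% of those shifted by 1 on the log2 scale, with 5 false calls. The real data had 8295 calls, so the limit on the unadjusted p was looser there. The simulation also held no dye bias and no error of the pool or of normalisation. Its recovery and false calls therefore do not carry over to the real data.

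Named genes are the 15 highest and 15 lowest with 1 sign in all mice, the 3 largest called members of each list in its main direction and the 2 largest in the other, and 34 fixed genes, apart from a few genes that are not reported here (32 of the 34 are). Other genes named were chosen after their values were seen. The members, lists and motifs were chosen with earlier results of these data known. Where the replicates' origin is concerned, the labels give each array an individual mouse. Alternatives changed the offset, normalisation, signal, filter, probe choice, samples, slide and replicates.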

Additional observations from a re-analysis of the deposited data

Results flagged for a closer look

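In 11 of 258 groups of 6 values, the named genes and the list means among them, 1 mouse stood apart from the other 5 by Dixon's criterion on the gap to its nearest neighbour. Chance sets apart about 1 in 20 such groups. Mouse 4 stood above the others for Bcl2 (1.84, others 0.684 to 0.879), Ccl21a (1.74, others −0.699 to 0.127), Ccr6 (2.17, others 0.996 to 1.24), Icosl (2.16, others 0.794 to 1.11), Madcam1 (1.02, others 0.243 to 0.465), Wdfy4 (4.1, others 2.84 to 3.16) and the scavenger receptor Marco (−0.021, others −3.77 to −2.49). Mouse 2 stood apart for Cd3e (−0.0863, others 0.174 to 0.27), Cidea (−2.14, others −2.88 to −2.73), Cidec (−0.253, others −0.583 to −0.497) and Cldn4 (−1.35, others −2.05 to −1.82).

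Of the 32 genes compared between ages, 22 had a ratio at 12 weeks that differed from that at 4 weeks in the fit of all 18 arrays (limma, adjusted over all genes). The difference, 12 weeks minus 4 weeks on the log2 scale, was positive for Glycam1 (4.69), Ccl19 (4.64), C3 (3.34), Ptprc (2.79), Ltb (2.46), Ifng (2.35), Mki67 (2.23), H2-Aa (2.01), Cxcl9 (1.95), Ppy (1.54), Ccl21a (1.53), Ciita (1.46), Jchain (1.22), Sst (0.988), Adgre1 (0.77), Mafa (0.635), Gzmb (0.423) and Il21 (0.212). It was negative for Il6 (−3.9), Reg3b (−3.25), Krt19 (−2.44) and Cd3e (−0.421).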

How the results depend on the processing

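Over the processing alternatives the count of called genes lay between 6654 (probes well above background in both channels on all 6 arrays) and 12298 (median centring), against 8295. Median centring kept 5274 of the calls (63.6%) and turned 893 round, while the other settings kept 84.1% to 100% of the calls they could test. Of 212 named genes 182 kept their direction and side of the threshold under median centring and 200 after scaling between arrays. The 2-fold count of 639 became 1134 under median centring, 1008 after scaling between arrays, 3122 with the scanner's processed signals and 3121 with the deposited values. Leaving out each mouse gave 7088 to 7951 calls, 568 to 714 2-fold calls, and 7183 to 7651 and 7445 to 7919 genes that differed from 4 weeks and from 10 days. The share of the chromosome 17 window of 30 to 35 Mb was 57.5% for all calls, 16.7% for 2-fold calls and 56.3% between 34 and 36 Mb.

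With median centring the mean changed sign for Ackr1 (0.00794), Cd9 (0.189), Cyth4 (0.213), Foxp3 (−0.544), Gcg (0.362), Il21 (−0.382), Itga6 (0.0609), Pdia3 (0.000814), Pigr (−0.354), Slc7a11 (−0.394), Sox10 (−0.0278) and Timp3 (0.198). With the mean of a gene's probes it did for Cyth4 (0.192), Gsr (−0.0916) and Klf2 (0.142). The cause was not tested. Of the genes given above, leaving out 1 mouse lost the call of Ackr1 (without mouse 1, 3 or 6), Amy2a5 (1, 3, 5 or 6), Cd3e and Gcg (any but 2), Cpe and Sytl4 (5), Cyth4 (any but 3), Foxp3 (4, 5 or 6), Ifi202b (1, 3 or 6) and Itga6 (1, 2, 4 or 5), with adjusted p from 0.051 (Foxp3) to 0.12 (Cyth4). Mafa gained a call without mouse 2 and Ppy without mouse 6.

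The numbers 1 to 6 name different mice at each age, and same-numbered mice did not deviate together (correlations −0.325 to 0.275 over 12 pairs). With the number as a replicate block 7778 genes differed between 12 and 4 weeks (8007 without) and 7913 between 12 weeks and 10 days (8111 without). With slide as a random block 10336 genes were called at 12 weeks, at a negative slide correlation (−0.162). Signal limits 2572 genes whose pool signal was not well above background on any array.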
